A study of Mytilus galloprovincialis with 16 samples.

Results

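The onset of male gonad development was followed by comparing stage 2 (development) with stage 1 (early) in the mantle of the Mediterranean mussel, Mytilus galloprovincialis. The comparison rests on the 4 dual-colour cDNA arrays whose titles pair stage 2 with stage 1, of 16 arrays in all, and on all 1920 clones spotted on them, which are also all the clones of the series. On each array RNA from the mantle of a single male at stage 2 was hybridised against RNA from a single male at stage 1. Both groups were wild animals from one lagoon, with no treatment, genotype or age given. Stage 2 animals were sampled in January and stage 1 animals in November, so stage and month of sampling cannot be told apart. The labels call the 4 arrays biological replicates but do not say whether an animal was used on more than 1 array, so the p-values below measure the spread between arrays.

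In mussels the gonad grows within the mantle. Its follicles spread through the connective tissue as spermatogonia divide and pass through meiosis to become spermatozoa, and the glycogen stores of the surrounding storage cells are drawn on as it grows. Mantle RNA at these stages is thus a mixture of germ cells, storage cells, epithelium and other cells. In such a tissue fewer cells of a type and less RNA per cell cannot be told apart. No source used here links a clone to a gene. For that reason neither the labelled tissue nor any cell type could be checked against marker genes, and no gene name or role is given to a clone.

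The 4 arrays measured more clones at stage 2 than at stage 1. A clone was counted as well above background when at least 1 of its 2 spots exceeded the local background by more than 2 background SDs. In the stage 2 channel this held for 43.2%, 53.6%, 44.4% and 53.1% of the clones on replicates 1, 2, 3 and 4, against 35.4%, 39.3%, 23.9% and 24.2% in the stage 1 channel. The stage 2 channel was ahead on each of the 4 arrays, with stage 2 labelled with Cy3 on replicates 1 and 3 and with Cy5 on replicates 2 and 4. Single blank spots passed the same limit in at most 0.658% of cases, while a clone had 2 spots that could pass. In both stages and on all 4 arrays 365 clones were above background, while 681 were not above it on any array in either stage. The share at a stage also differed between pairs of stages. On the 4 arrays pairing stage 4 with stage 1, the stage 1 channel had 38.2% to 51.9% of the clones above background. On the 4 arrays pairing stage 3 with stage 2, the stage 2 channel had 56.25% to 72.9%. The shares of the direct arrays thus do not stand for a stage in general. The arrays were not made to the same total signal, so these shares describe what could be measured and not the amount of RNA.

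**Figure D1:**
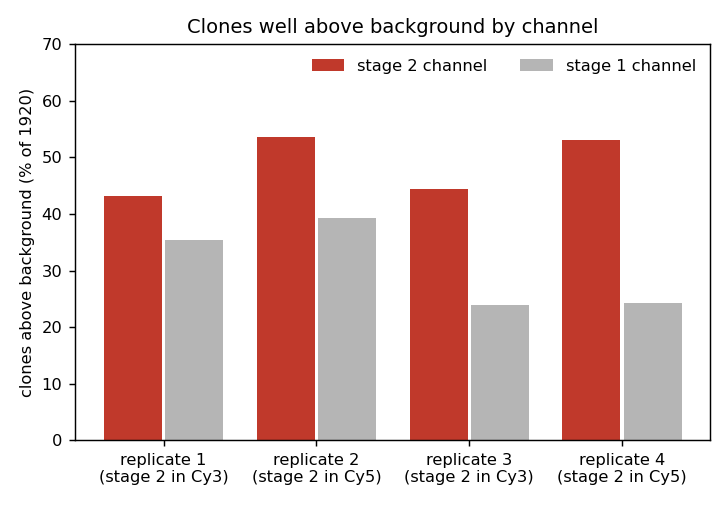
Share of the 1920 clones well above background (percent, vertical axis) in the stage 2 channel (red) and the stage 1 channel (grey) of each of the 4 arrays, with the dye of stage 2 given under each replicate. The stage 2 bars lie between 43.2% and 53.6%, and the stage 1 bars between 23.9% and 39.3%.

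A group of 53 clones was above background on all 4 arrays at stage 2 and on none at stage 1, and 0 clones showed the reverse. Of these 53 clones 4 passed the test described next. Their mean log2 ratios of stage 2 over stage 1 ran from -0.11 (Myt01-016A03) to 1.64 (Myt01-014D04), and some were close to 0. The count is thus one of detection and not of change. More clones were detected in the stage 2 channel as a whole, and its part in this count was not tested. At stage 1, 369 clones were above background on all 4 direct arrays, against 663 on all 4 arrays pairing stage 4 with stage 1. Without replicate 1 the count was 127, without replicate 2 or replicate 3 it was 85, and without replicate 4 it was 56. Leaving out an array asks less of a clone, so this count could only stay or rise.

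Relative mRNA abundance was then compared clone by clone, as the log2 ratio of stage 2 over stage 1. At stage 2, 21 clones were higher (1.09% of the 1920 tested) and 13 were lower (0.677%), which makes 34 clones called (1.77%) at an adjusted p below 0.05 in limma, two-sided. The higher clones had a median log2 change of 1.20, with a range of 0.58 to 3.47. The lower clones had a median of -1.03, with a range of -4.22 to -0.52. Over all clones the median was -0.02 and the SD 0.363. All 34 called clones had the same sign on all 4 arrays, which the test favours, and so had 281 clones on the positive side and 262 on the negative side among all clones.

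The number called depended on single arrays and on the background. It was 7 without replicate 1 or replicate 3, 14 without replicate 2 and 58 without replicate 4, and 16 without background correction and 12 with plain subtraction. It also depended, with its balance, on how the arrays were scaled. With print-tip loess, used here, 61.8% of the called clones were higher at stage 2. This share was 45.8% of 72 clones with loess over the whole array, 50.9% of 53 with scaling between arrays, 47.2% of 53 with the deposited log2 ratios and 85.4% of 123 with median centring. All 34 clones kept their direction under each of these settings. Leaving out an array could not change it, since the ratios of each had the same sign on every array. Under the other scalings 27 to 34 of them remained called.

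More than 2-fold changes were found in 13 of the clones that rose and 8 of those that fell. A further 12 clones higher and 19 lower by more than 2-fold on average were not called, although all 31 had the same sign on the 4 arrays. Their median SE was 0.341, against 0.139 for the called clones and 0.108 for all clones. The threshold fell within a dense run of values, with an adjusted p of 0.0487 for the last clone inside it and 0.0501 for the first outside. Another 63 clones, 23 higher and 40 lower, had an adjusted p above the threshold but below 0.1, and 343 clones had an unadjusted p below 0.05. By the log odds, with B above 0 as the threshold of the study's methods, 30 clones were called.

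**Figure D2:**
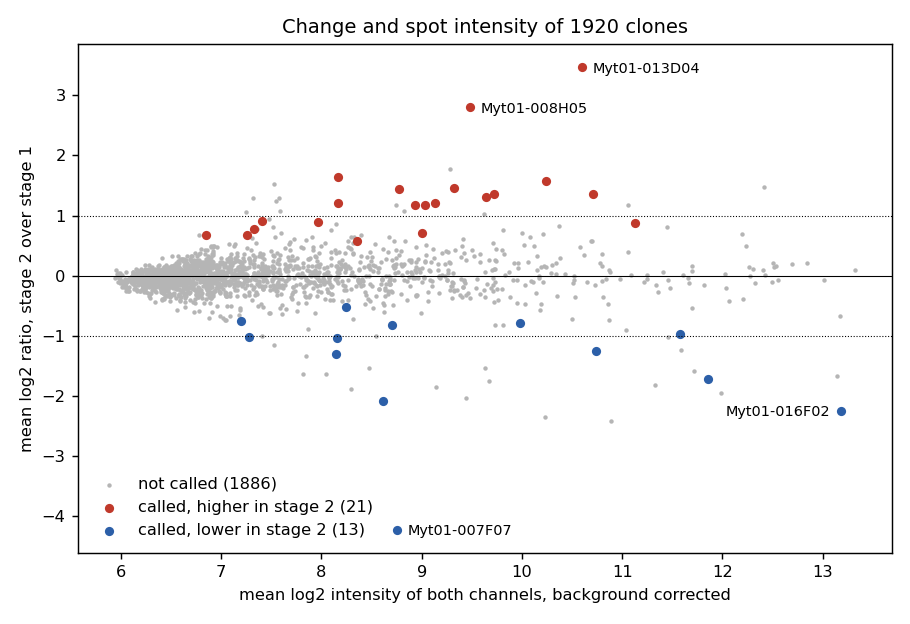
Mean log2 ratio of stage 2 over stage 1 (vertical axis) against the mean log2 intensity of both channels after background correction (horizontal axis), 1 point per clone. Of the 1920 clones, the 21 called higher at stage 2 are red, the 13 called lower are blue and the rest grey, and dotted lines mark 2-fold changes. Called clones lie mostly to the right, and grey points beyond the dotted lines are changes that did not pass the test.

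Calls were made mostly among bright clones. With the clones ranked by intensity into 4 classes of 480, the brightest class held 28 called clones (5.83%), 17 higher and 11 lower. The next classes held 5 (1.04%), 1 (0.208%) and 0 called clones. Median SEs differed little between the 4 classes, at 0.114, 0.112, 0.111 and 0.0982, while the SD of the log2 changes was 0.607, 0.326, 0.194 and 0.112 in the same order. The background correction draws ratios of dim spots towards 0, so fewer calls among dim clones do not show that their mRNA was unchanged. On replicates 1 to 4 no spot reached saturation.

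The largest rise was that of Myt01-013D04. Its raw intensity was 4249.5, 10964.5, 4967 and 5582.5 at stage 2 on replicates 1 to 4, against 666.5, 569.5, 902.5 and 489 at stage 1. Every stage 2 value lay above every stage 1 value, and both stages were above background on all 4 arrays. The log2 ratio was 3.21, 4.37, 3.14 and 3.15, with a mean of 3.47 ± 0.60 (SD, n = 4) or 11.1-fold (limma adjusted p = 0.00267). After print-tip loess replicate 2 stood apart, and the other 3 arrays lay between 3.14 and 3.21. Other scalings did not keep these 3 so close. With median centring replicates 1 to 4 read 2.74, 4.92, 2.96 and 4.29, and in the deposited ratios 2.825, 4.24, 2.56 and 3.37. The size depended on the background, at 2.86 on the log2 scale without its correction.

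Myt01-008H05 had the second largest rise. Its intensity was 1381, 3440, 3350.5 and 2973.5 at stage 2, against 301, 396.5, 451.5 and 458 at stage 1. The stages did not overlap, but the stage 1 signal was weak and was above background on 3 of 4 arrays. The log2 ratio was 2.19, 3.57, 2.92 and 2.54, with a mean of 2.80 ± 0.59 (SD, n = 4) or 6.97-fold (limma adjusted p = 0.00366). Without background correction the mean was 2.05. Without replicate 3 its adjusted p in limma was 0.0503, just past the threshold.

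Myt01-007F07 had the largest fall. Its intensity was 426, 271.5, 325 and 193 at stage 2, against 1880.5, 2479, 1746.5 and 1145.5 at stage 1. At stage 2 it was above background on 1 of 4 arrays only, and at stage 1 on all 4, and the stages did not overlap. The log2 ratio was -3.52, -4.64, -4.34 and -4.38, with a mean of -4.22 ± 0.48 (SD, n = 4) or 18.7-fold lower (limma adjusted p = 0.000511). Since the stage 2 signal was close to background, the size was set largely by the correction. It was -2.89 without background correction and -5.50 with plain subtraction, and the call held in both.

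Myt01-016F02, among the brightest of all clones, had the second largest called fall. Its intensity was 4170, 6169, 3707.5 and 11576 at stage 2, against 19802, 21877, 17830 and 8619 at stage 1. Replicates 1 to 3 had the higher raw signal at stage 1, and replicate 4 at stage 2. After print-tip loess the log2 ratio was -2.21, -2.34, -3.48 and -0.95, with a mean of -2.25 ± 1.03 (SD, n = 4) or 4.74-fold lower (limma adjusted p = 0.0447). With median centring replicate 4 alone turned to 0.26, while replicates 1 to 3 lay between -2.51 and -2.00. The call was lost without replicate 1, 2 or 3, at log2 changes of -2.26, -2.21 and -1.83 (adjusted p = 0.226, 0.169 and 0.115). It was also lost without background correction (-2.18, adjusted p = 0.0918), with plain subtraction (-1.67, adjusted p = 0.136) and with a dye term in the fit (-2.25, adjusted p = 0.0575). The direction held in each case, but only the background settings among these could have changed it.

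**Figure D3:**
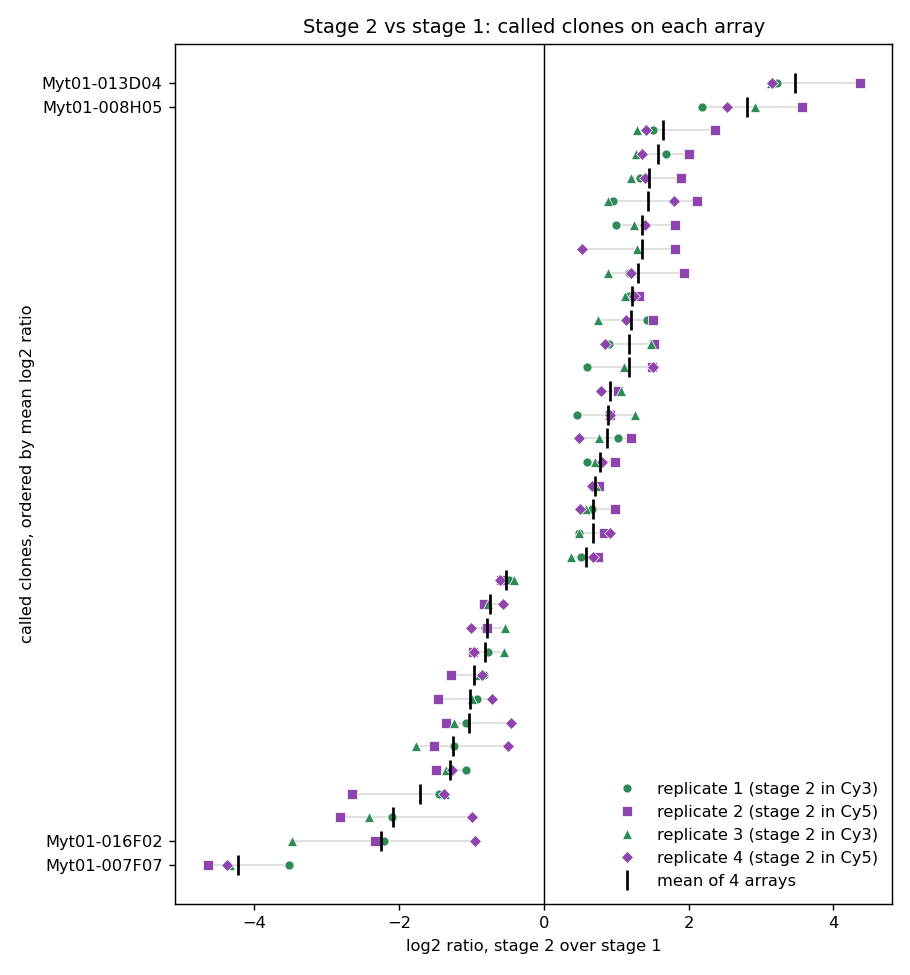
Log2 ratio of stage 2 over stage 1 (horizontal axis) of the 34 called clones, 1 row per clone ordered by its mean, with the 4 named clones labelled. Green marks are arrays with stage 2 in Cy3, purple marks arrays with stage 2 in Cy5, and black bars the means of 4 arrays. No row crosses 0, replicate 2 often lies farthest from 0, and the spread is widest among the large falls.

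The other called clones spanned smaller changes. The third largest rise was 1.64 and the third largest called fall -2.08 on the log2 scale. Of the 21 clones that rose, 6 were past 2-fold on every array, 10 on some arrays and 5 on none. Of the 13 that fell, the numbers were 3, 7 and 3. Over all 1920 clones, 6 had a log2 ratio above 1 and 3 a ratio below -1 on all 4 arrays, and these were all called.

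Replicate 2 gave the largest ratios. It held the ratio farthest from 0 for 17 of the 21 clones that rose and 8 of the 13 that fell. The median log2 ratio of the clones that rose was 0.99, 1.51, 1.10 and 1.14 on replicates 1 to 4. For those that fell it was -1.07, -1.46, -1.24 and -0.95. Over all clones the SD of the log2 ratios was also highest on replicate 2, at 0.569, against 0.424, 0.451 and 0.379 on replicates 1, 3 and 4.

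Several of the called rises are bounds. At stage 1, 5 of the 21 clones that rose were not above background on any array, so a least change was computed for them, at 1.20-fold to 3.12-fold. It is bright over dim. Where the dim channel lay under the lowest level of any clone above background in that channel, it was raised to that level. For Myt01-014D04, at 3.12-fold, the result was the same as the measured ratio, so it is not a bound. The other 29 called clones were measured in both stages on at least 1 array, and 21 of them on all 4.

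The called clones came from 12 of the 20 clone plates encoded in their identifiers. Plate 012 held 6 of them, all higher at stage 2, and no other plate held more than 4. Plates 001 to 004, with 384 clones, held 0 called clones and 8 changes over 2-fold, although 58 of their clones were above background in both stages on all 4 arrays. The other 1536 clones held 34 called clones and 44 changes over 2-fold, but plates 006, 018, 019 and 020 among them also held 0 called clones. What the plates hold is not given in the sources used here.

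Duplicate spots differed less than arrays for the called clones. The median SD between duplicate spots was 0.0954 on the log2 scale, against a median SD between arrays of 0.333, and the SD between arrays was the larger in 30 of 34 clones. For all clones the medians were 0.159 and 0.215. The animals and the hybridisations both differ between arrays and cannot be told apart in this spread.

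The arrays were also read by dye. The 34 called clones, whose single sign on all arrays fixes that of both dye means, had median sizes of 1.17 with stage 2 in Cy5 and 1.06 with stage 2 in Cy3, and 25 were larger in Cy5. Replicate 2, which gave the largest ratios, is 1 of the 2 arrays with stage 2 in Cy5. Dye and array thus cannot be told apart in these sizes. Across all 1920 clones the means of the 2 orientations had a correlation of 0.646. In a fit with a dye term 0 clones had a dye effect at an adjusted p below 0.05 in limma, with 106 at an unadjusted p below 0.05, 0 with B above 0 and a smallest adjusted p of 0.642. The 2 arrays per orientation limit this test. For Myt01-013D04 the mean was 3.76 with stage 2 in Cy5 and 3.18 in Cy3, and for Myt01-016F02 it was -1.65 and -2.84.

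The 4 arrays did not resemble each other equally. Across all 1920 clones, which are not independent replicates, the correlation of log2 ratios was 0.736 between replicates 1 and 2, 0.578 between 1 and 3, and 0.484 between 2 and 3. Replicate 4 had correlations of 0.307, 0.494 and 0.368 with replicates 1, 2 and 3. Over the 365 clones above background in both stages on all 4 arrays, its correlations were 0.492, 0.633 and 0.598, against 0.713 to 0.913 among the others. Its duplicate spots also agreed least, with a correlation of 0.572, against 0.786, 0.779 and 0.698 on replicates 1, 2 and 3.

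Replicate 4 was then set against the other 3 arrays. Clones were chosen by their mean on replicates 1 to 3 and read on replicate 4, which the choice did not use. Of 24 clones above 1 on the log2 scale, all 24 were positive on replicate 4, with a median of 0.85, against 1.43 on the arrays that chose them. Of 32 clones below -1, 31 were negative on replicate 4 but only 3 passed -1, with a median of -0.42, against -1.99. When replicate 1, 2 or 3 was the array left for reading, 86.2%, 95.7% and 91.7% of the clones chosen as low passed -1 on it. Of the clones chosen as high, 68.2%, 94.1% and 46.4% passed 1 on it, and 45.8% on replicate 4. For the rises replicate 3 was thus close to replicate 4. Over all clones 1.61%, 2.71%, 2.66% and 1.875% passed -1 on replicates 1, 2, 3 and 4. The shares past 1 were 1.72%, 3.49%, 0.885% and 0.677%. Without replicate 4 the fit called 38 clones lower and 20 higher at stage 2.

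Both kinds of disagreement were then looked at by spot, for clones chosen by these values and with no test. In 21 clones the mean of replicates 1 to 3 was below -1 and replicate 4 above -0.5. They were bright, their duplicate spots on replicate 4 differed by a median of 0.12, and stage 2 was above background on replicate 4 in all 21 and stage 1 in 19. On the Stage4/Stage1 array numbered 4 all 21 had a positive ratio, with a median of 0.76, and the medians on the other arrays of that pair were -0.09 to 0.46. The lowest ratio on Stage4/Stage1 arrays 1, 2 and 3 was -0.11, -0.31 and -0.12, so some of the 21 were negative there. On each of the 4 Stage4/Stage3 arrays, which hold no stage 1 RNA, all 21 were positive, with medians of 0.38 to 1.08. The cause of these signs was not tested. In 31 other clones replicate 4 was below -1 and the mean of the others above -0.5. These were dim, their duplicate spots on replicate 4 differed by a median of 1.58, and both spots were below -1 in only 10 of them.

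**Figure D4:**
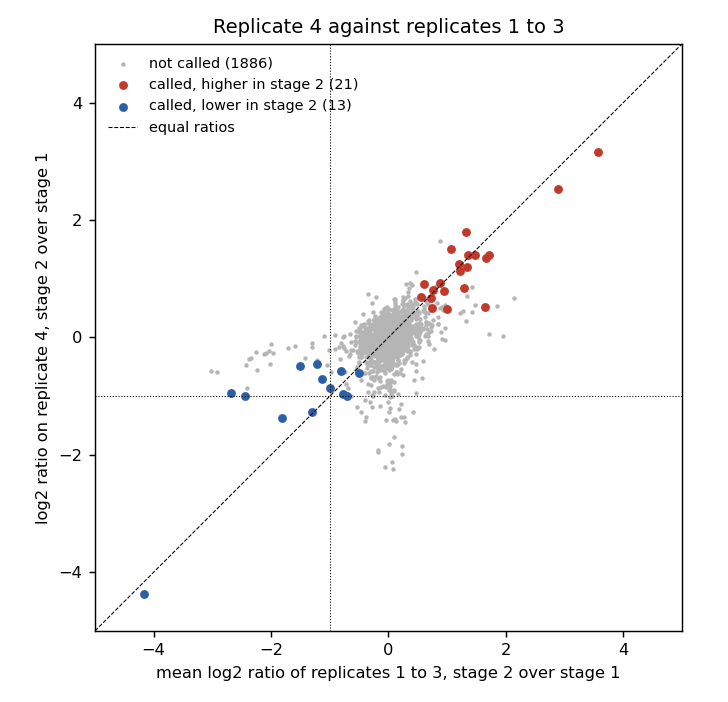
Log2 ratio of stage 2 over stage 1 on replicate 4 (vertical axis) against the mean of replicates 1 to 3 (horizontal axis) for 1920 clones, coloured as called higher (red), called lower (blue) or not called (grey). The dashed line marks equal ratios and the dotted lines a log2 ratio of -1. The clones on the right follow the dashed line loosely, while of the 32 clones left of the dotted line 3 lie below -1 on replicate 4.

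The called clones were next read on the arrays of the other 3 pairs of stages, each fitted alone. The Stage3/Stage2 arrays share stage 2 with the arrays that chose the clones and the Stage4/Stage1 arrays share stage 1, and whether they share animals is not given. Of the 21 clones that rose to stage 2, 15 were lower at stage 3 than at stage 2 and 2 were higher, with a median log2 change of -0.93. Over all clones 11.8% were lower and 11.6% higher in that comparison. On Stage3/Stage2 replicate 1 the label fields disagree on the sampling month of the stage 3 channel, which was taken as stage 3 after its title. Without this array 15 of the 21 were lower and 1 was higher, and 7.6% and 7.76% of all clones. At stage 4 relative to stage 3, 8 of the 21 were higher and 2 lower, with 13.2% of all clones higher and 14% lower. Of the 13 clones that fell to stage 2, 0 were higher and 4 lower at stage 3 than at stage 2. At stage 4 relative to stage 3, 7 of the 13 were higher and 1 lower.

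On the Stage4/Stage1 arrays 0 of the 34 were called, as were 0 of all 1920 clones (0%) in limma, where 32 had an unadjusted p below 0.05 and 0 had B above 0. The log2 changes of the 21 clones there ranged from -0.08 to 0.31, and those of the 13 clones from -0.23 to 0.50.

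Going around the loop of stages gave a second estimate of stage 2 over stage 1, whose value used none of the 4 direct arrays. It was the Stage4/Stage1 ratio minus the Stage4/Stage3 and Stage3/Stage2 ratios, from the other 12 arrays. By this route 7.6% of all clones were called higher at stage 2 and 5.89% lower. Of the 21 clones that rose, 19 were positive and 10 were called higher, with a median log2 change of 0.78, against 1.20 on the direct arrays. Of the 13 that fell, 5 were positive and 8 negative, 3 were called higher and 0 lower, with a median of -0.04, against -1.03. Without the array of doubtful month these counts were the same, at 10 and 3 called higher. The direct minus the around-loop change passed the test in 8 of the 21 and 6 of the 13 clones, and in 11.7% of all clones. The direct arrays chose these clones and enter that difference, so the counts are a description only.

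All 4 named clones differed between the routes. They were named for their direct ratios, which enter the difference, so the p-values of the differences, here and below, are a description only. Myt01-013D04 was 2.87 higher on the direct arrays than around the loop (limma adjusted p = 0.000589), where its change was 0.60. For Myt01-008H05 the difference was 1.97 (adjusted p = 0.0092), with 0.83 around the loop. For both clones the Stage3/Stage2 ratio was negative, at -2.45 ± 0.82 and -1.94 ± 0.78, and the Stage4/Stage3 ratio positive, at 1.81 ± 0.29 and 1.04 ± 0.32 (SD, n = 4 each).

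Myt01-007F07 gave opposite directions by the 2 routes, with -4.22 on the direct arrays and 0.95 around the loop (limma adjusted p = 0.0146). The difference was -5.17 (adjusted p = 6.67e-09). Neither stage was above background on any Stage3/Stage2 or Stage4/Stage1 array, so the around-loop change came from the Stage4/Stage3 ratio of -0.95 ± 0.29 (SD, n = 4). At stage 1 this clone was above background on 4 of 4 arrays when paired with stage 2, and on 0 of 4 when paired with stage 4. Its raw stage 1 intensity on the Stage4/Stage1 arrays was 310, 189, 218 and 315, below each of its 4 values at stage 1 on the direct arrays. At stage 3 it was above background on 4 of 4 arrays when paired with stage 4 and on 0 of 4 when paired with stage 2. Of the 11 called falls that were above background at stage 1 on all 4 direct arrays, 9 were so on all 4 Stage4/Stage1 arrays, and Myt01-007F07 was the lone clone above background there on none.

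For Myt01-016F02 the around-loop change was 0.18 and the difference -2.43 (limma adjusted p = 0.0116). Its log2 ratio was -0.01 ± 0.08 on the Stage3/Stage2 arrays, 0.26 ± 0.24 on the Stage4/Stage3 arrays and 0.44 ± 0.82 on the Stage4/Stage1 arrays (SD, n = 4 each). The last of these rested on replicate 4, at 1.66, while the other 3 arrays lay between -0.02 and 0.08.

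**Figure D5:**
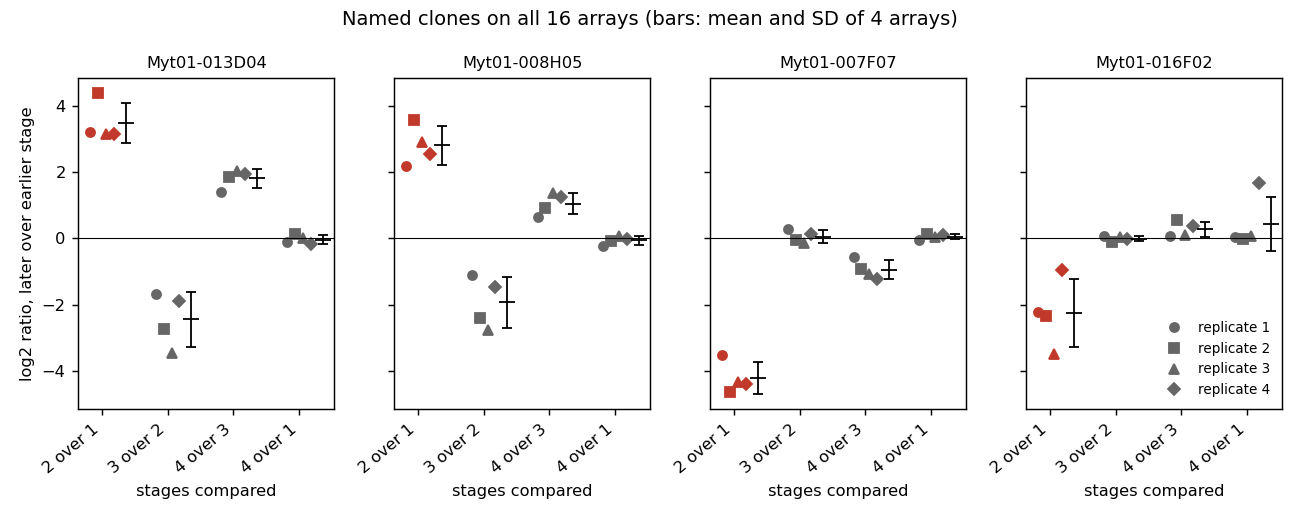
Log2 ratio of the later over the earlier stage (vertical axis) for the 4 named clones on each array of the 4 pairs of stages, with the stage 2 over stage 1 arrays in red and the others in grey. Symbols give the replicate number, and bars the mean and SD of 4 arrays. The Stage4/Stage1 ratios of Myt01-013D04, Myt01-008H05 and Myt01-007F07 lie close to 0, while the mean of stage 2 over stage 1 lies farther from 0 than the other means in all 4 panels.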

How the data were processed

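Mantle RNA of single males was hybridised in pairs on a mussel cDNA array with Cy3 and Cy5. The deposited scanner files, made by the authors with GenePix, hold raw intensity and local background of 4560 spots per array, 3840 of which carry the 1920 clones in duplicate. The deposited value table holds log2 ratios per spot made by the authors with limma, per the submitters' processing notes. Against the scanner values after loess, its columns for the 4 direct arrays had slopes of 0.998 to 1.01, correlations of 0.983 to 0.999 and medians of -0.0171 to 0.05 when taken as later over earlier stage.

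Foreground means were corrected with normexp (background medians, offset 50) and normalized with print-tip loess (limma 3.58.1 under R 4.3.3), alignment and blank spots at weight 0. Ratios were turned to stage 2 over stage 1 by the dyes in the labels and averaged over duplicates. The 4 direct arrays were fitted alone, with 3 residual and 3.30 prior degrees of freedom, empirical Bayes moderation and two-sided Benjamini-Hochberg adjusted p below 0.05. An exact test on 4 ratios cannot go below 0.125. The other pairs were fitted likewise, and the loop with a mean for each pair. Median clone intensity per direct array ran from 213 to 307 in Cy5 and from 345.5 to 382 in Cy3. The fit was tested on simulated data.

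Members and lists were chosen with earlier results of these data known. The 2 largest called rises and the 2 largest called falls with one sign on all 4 arrays were named. Gene and marker lists could not be applied. Reads by plate, by detection and of replicate 4 were chosen after the values were seen, as were array quality weights. The other alternatives are given with their results. Plots were made in matplotlib 3.10.9 (Python 3.11.15).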

Additional observations from a re-analysis of the deposited data

Results flagged for a closer look

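An array far from the other 3 of its pair was looked for in 23 sets of 4 values, where chance gives about 1 in 20, and was found in 2 of them. After print-tip loess the log2 ratio of stage 2 over stage 1 of Myt01-013D04 was 4.37 on replicate 2, and 3.14 to 3.21 on replicates 1, 3 and 4. This gap depended on the scaling. With median centring replicate 4 read 4.29 and replicate 2 read 4.92. The log2 ratio of stage 4 over stage 1 of Myt01-016F02 was 1.66 on replicate 4, and -0.02 to 0.08 on replicates 1 to 3.

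The direct and the around-loop estimates of stage 2 over stage 1 differed, by the test of the difference itself, for all 4 named clones. The direct minus the around-loop log2 change was 2.87 for Myt01-013D04, 1.97 for Myt01-008H05, -5.17 for Myt01-007F07 and -2.43 for Myt01-016F02. These clones were named for their direct ratios, which enter the difference, so this is a description only. Whether the animals of a stage were the same in different pairs is not given.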

How the results depend on the processing

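The count of 34 called clones (21 higher, 13 lower at stage 2) was within 1.5 times of its value with B above 0 and with a dye term. It was 16 (10 higher, 6 lower) without background correction and 12 (9 and 3) with plain subtraction. It was 72 (33 and 39) with loess over the whole array, 123 (105 and 18) with median centring, 53 (27 and 26) with scaling between arrays and 53 (25 and 28) with the deposited ratios. With both duplicate spots in the fit it was 182 (102 and 80), where spots of 1 array count towards the error. It was 82 (37 and 45) of 722 clones when only clones above background on each array were tested, and 44 (24 and 20) with array quality weights. Over all 16 arrays it was 168 (102 and 66). Leaving out 1 array gave 7 to 58 clones, 5 to 20 higher and 2 to 38 lower, with 7 without replicate 1 or 3, 14 without replicate 2 and 58 without replicate 4, of which 7, 14 and 29 were among the 34. All 34 kept their sign in every setting that tested them, and 12 to 34 remained called in the settings that kept all 4 arrays. Their ratios had the same sign on all 4 arrays. Leaving out or weighting arrays, a dye term, both spots, B above 0 or fewer clones thus could not change it. Only other background settings, other scalings, the deposited ratios and the fits over all 16 arrays could. The cause of these differences was not tested.

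With the replicate block over all 16 arrays 149 clones were called (86 and 63). The numbers were not taken to pair the arrays. Deviations of same-numbered arrays correlated at -0.07 to 0.32, above 0.1 in 6 of 12 cases, and the same number gave the best correlation in 4 of 12. These values cannot decide the pairing, since the Stage4/Stage3 arrays among them share no stage with the direct arrays. For the arrays numbered 4 the correlations were 0.11, 0.23 and 0.32. Whether arrays share animals is not given.

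Clones above background at stage 2 only numbered 45 and 48 at 1 and 3 background SDs and 56 to 127 without 1 array, and those at stage 1 only 0 to 1. The counts without 1 array could only stay or rise, since fewer arrays had to pass. Named clones kept their sign in all 16 settings each. It could have changed only with the background, the scaling, the deposited ratios or the fits over all 16 arrays. The calls of Myt01-013D04 and Myt01-007F07 held in all 16, that of Myt01-008H05 in 15 and that of Myt01-016F02 in 10. Dim channels limit the size of large changes.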
